A study of Oryza sativa Indica Group with 2 samples.

Results

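The loci described here are those of rice chromosome 11, taken as every locus of the deposited comparison whose identifier begins with LOC_Os11g. The comparison listed gene models, so the model with the most reads stood for each locus. By this rule 261 of 3946 loci, holding 367 of 5804 models, lay on chromosome 11. Chromosome 12, whose start carries a copy of the start of chromosome 11, held 202.

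RNA was sequenced from leaves of a pair of IRGA rice breeding genotypes, labelled cold-tolerant and cold-sensitive, whose pedigree names share most of their parts. Plants of both were about 20 days old, with 3 leaves, when they spent 6 h at 10 °C in light of 40 µmol m-2 s-1, and each library pooled 9 plants. No unchilled plants were among the samples, so each value below compares chilled with chilled plants.

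Each genotype had 1 library and no replicate, so no test was possible and no difference below has a replicate check. Reads of each model were recovered from the deposited mean level and fold change, which gave whole numbers in both libraries for 100% of the models. Which genotype forms the numerator of the deposited ratio is not given in the sources used here. In what follows library A is the numerator and library B the denominator, with scaled sizes of 12846997 and 12152372 reads, and a pair of read numbers gives A first. A log2 ratio above 0 is a higher level in A. Intervals in brackets are exact 95% intervals that cover counting error only. Levels in RPM are reads scaled to the library size and are compared between libraries, never between genes, since no gene lengths were used. The deposited comparison holds only models under the authors' adjusted p threshold of 0.05, so a gene outside it has no value. In bulk leaves, fewer cells of a type and less RNA per cell cannot be told apart.

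Chromosome 11 of rice carries genes of leaf carbon metabolism beside many clustered families of disease resistance genes and receptor kinases, whose copies vary in number between cultivars. Its short-arm end is a segment duplicated on chromosome 12, and the copies of many genes in it remain nearly alike in sequence. Reads of such copies may be hard to assign, and the sources used here do not say how reads that matched several loci were counted.

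Reads over both libraries ranged from 13 to 699455 per locus on chromosome 11, with a median of 503 against 626 over all loci of the comparison. RCA (LOC_Os11g47970), which encodes Rubisco activase, the chaperone that frees Rubisco of inhibitory sugar phosphates, had 349194 reads in A and 350261 in B. ALDP (LOC_Os11g07020), the plastid fructose-bisphosphate aldolase of the Calvin cycle, had 135280 and 146927. These 2 loci held 77.3% of the chromosome's reads. With them, chromosome 11 made up 14.1% of the compared reads in A and 13.6% in B, and without them 3.12% and 3.15%.

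Of the 261 loci, 134 were higher in A and 127 in B. The share higher in A was 51.3%, against 41.4% over all loci of the comparison and 40.7% over the other chromosomes together. Chromosomes 1 to 10 lay between 33.2% and 47.1%, and chromosome 12 was at 56.4%. The median log2 ratio of the 239 loci read in both libraries was 0.24, against -0.31 over the comparison, 0.34 on chromosome 12 and -0.42 to -0.25 on chromosomes 1 to 10. The sign of the chromosome 11 median was not stable: it was -0.17 among loci with at least 100 reads and -0.35 without loci whose read numbers recurred elsewhere, which are described next.

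**Figure D1:**
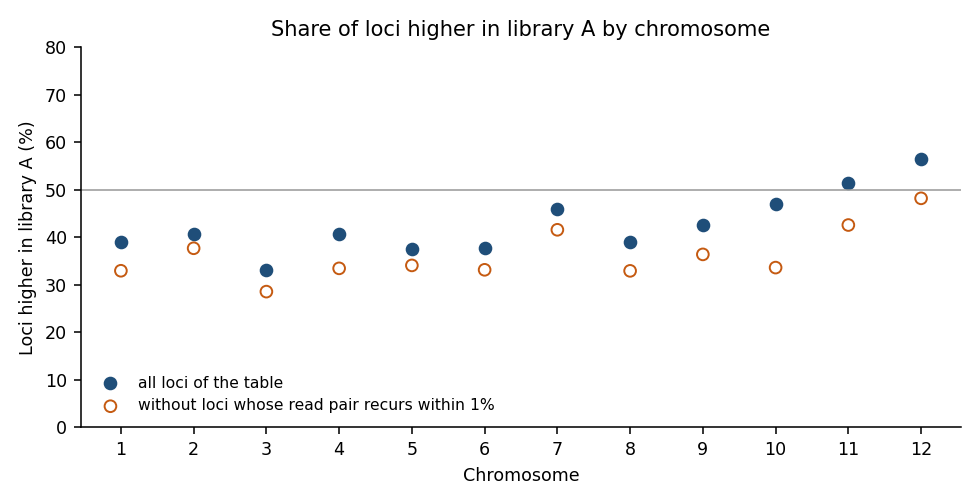
Share of loci higher in library A (percent, vertical axis) for each of the 12 chromosomes (horizontal axis), over all loci (filled) and without loci whose read numbers recur within 1% (open). Over all loci chromosome 11 stood at 51.3% and chromosome 12 at 56.4%, with the others between 33.2% and 47.1%.

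Many chromosome 11 loci had read numbers that another locus matched within 1% in both libraries. There were 99 such loci (37.9%, against 36.4% over the comparison), of which 65 were higher in A, with a median log2 ratio of 0.39. Over the comparison the share higher in A was 41.4% with all loci and 35.4% without matched ones. Matched loci were thus more often higher in A than unmatched loci there too. Among the 162 loci without such a match, 69 were higher in A, a share of 42.6%, with a median of -0.35. The same share for unmatched loci was 34.9% over the other chromosomes, 48.2% on chromosome 12 and 28.6% to 41.6% on chromosomes 1 to 10. Among loci with read numbers of their own, chromosome 11 thus stayed above chromosomes 1 to 10, though close to the highest of them.

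Matched loci ran from 13 to 5371 reads over both libraries, and 26 of the 99 lay in a narrow range. In the box of 700 to 900 reads in A and 500 to 650 in B lay 28 chromosome 11 loci (10.7%, against 5.75% over the comparison), and 26 of the 28 had a match. LOC_Os11g42190 had 809 and 566 reads, LOC_Os11g36990 had 809 and 558, and LOC_Os11g15350 had 809 and 560. All 28 lay outside the first 5000 locus numbers, and their log2 ratios ran from 0.23 to 0.55 with a median of 0.41. At the low end, the pair of 22 reads in A and 6 in B recurred at 8 loci of 5 chromosomes, 3 of them on chromosome 11 (LOC_Os11g08810, LOC_Os11g12450 and LOC_Os11g27590). The box was drawn after the values had been seen, and whether its loci share sequence was not tested.

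**Figure D2:**
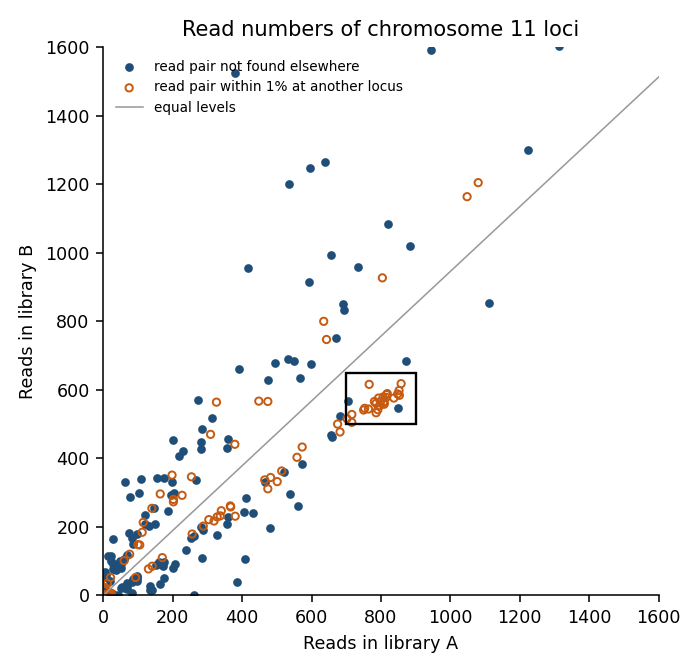
Reads in library B against reads in library A for the 219 chromosome 11 loci read in both libraries with up to 1600 reads in each. Open circles are loci matched within 1% elsewhere, the grey line marks equal levels, and the rectangle of 700 to 900 by 500 to 650 reads holds 28 loci.

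Differences of at least 1 on the log2 scale were found at 77 of 239 loci (32.2%), against 25.3% over the comparison. Higher in A were 37 of the 239, a share above the 8.48% of the comparison as a whole. Chromosome 7 had a like share, 47 of 309. Higher in B were 40 of the 239, close to the 16.8% of the comparison. For both directions together, chromosomes 7 and 9 had higher shares than chromosome 11, 34.0% and 33.9%. At 32 of the 239 loci the difference reached 2, against 284 of 3846 over the comparison. Chromosomes 7 and 9 had 35 of 309 and 38 of 277 such loci. Under 100 reads, where 19.2% of chromosome 11 loci lay against 15.1% elsewhere, 100% of those read in both libraries differed by 1 or more, against 95.5% on the other chromosomes. The share was 49.0% against 39.8% from 100 to under 300 reads, 19.2% against 11.1% from there to under 1000, and 8.24% against 4.70% at 1000 or more. At low read numbers only large ratios pass the authors' threshold, so the share under 100 reads was nearly fixed in advance. From 100 reads on, chromosome 11 was above the other chromosomes together in each class of read number. The share of loci higher in A, in the same order of classes, was 60% against 40.9%, 49.1% against 31.3%, 49.3% against 40.9%, and 49.4% against 44.6%. It was higher on chromosome 11 in every class.

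Position along the chromosome was read from the 5-digit locus number, which gives order and not distance. In the first 5000 numbers, 10 of 40 loci were higher in A and the median log2 ratio was -0.57. The next stretch had 18 of 37 and a median of 0.27, the third 24 of 40 and 0.38, and the fourth 11 of 21 and 0.03. The fifth, with 8 loci, had 4 higher in A and a median of -0.30. From the sixth to the tenth stretch the medians were 0.41, 0.39, 0.43, 0.42 and 0.36, with 9 of 15, 12 of 22, 23 of 40, 14 of 23 and 9 of 15 loci higher in A. The start was thus the stretch with the lowest median, and every later stretch except the fifth had a median above 0.

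Without matched loci the start remained lowest, at -0.85, while only the seventh, eighth and ninth stretches stayed above 0, at 0.042, 0.41 and 0.091. The longest run of neighbouring listed loci higher in A held 14 loci (LOC_Os11g44160 to LOC_Os11g46910), of which 10 were matched. Unlisted loci can lie within a run, as JAMYB (LOC_Os11g45740) does in this one. The longest runs higher in B held 9 loci each and both lay in the start, from LOC_Os11g02730 to LOC_Os11g03780 and from LOC_Os11g04104 to LOC_Os11g04880. The listed locus between them, LOC_Os11g03960, had 337 reads in A and 232 in B. Longest runs on the other chromosomes held 4 to 13 loci for those higher in A and 9 to 14 for those higher in B. The runs of 9 higher in B were thus at the low end of that range.

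**Figure D3:**
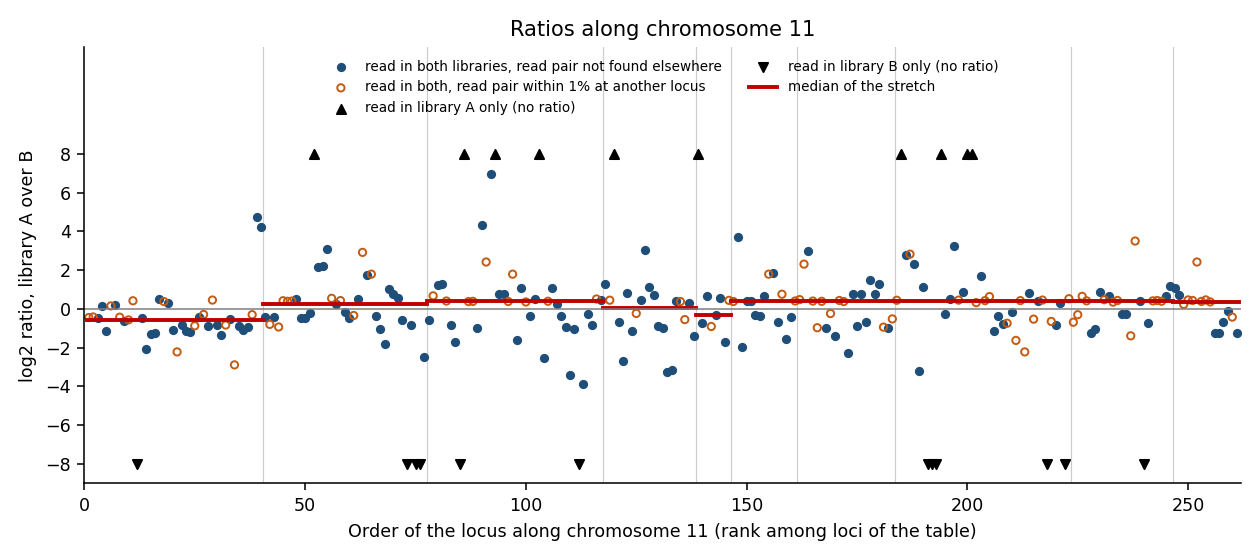
log2 ratio of A over B (vertical axis) against the rank of the locus along chromosome 11 (horizontal axis). Open circles are loci matched within 1% elsewhere, triangles at the edges are loci read in 1 library, and bars are medians of stretches of 5000 locus numbers. The first stretch has its median at -0.57, and the last 5 stretches have medians between 0.36 and 0.43.

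The start was lower in A than the rest of the chromosome. Of its 40 loci 30 were higher in B. Those higher in A made up 25%, against 56.1% of the 221 later loci, whose median was 0.39. Among unmatched loci, 19 of 25 at the start were higher in B, and 46.0% of 137 later ones were higher in A. The start of chromosome 12 gave 30 of 42 loci higher in B with a median of -0.46, and 63.8% higher in A after it. The starts of chromosomes 1 to 10 spanned 20.0% (chromosome 6) to 66.7% (chromosome 9) higher in A, so the start of chromosome 11 was within their range.

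Copies named from field knowledge, of which the pair CPD1 and CPD2 was added after the values had been seen, were set side by side. RR9 (LOC_Os11g04720), a type-A response regulator that dampens cytokinin signalling, had 639 against 1264 reads, or 49.7 against 104 RPM, which is a log2 ratio of -1.06 (-1.20 to -0.93). Its copy RR10 (LOC_Os12g04500) had 675 and 1371 reads, a log2 ratio of -1.10 (-1.24 to -0.97). CPD1 (LOC_Os11g04710), a cytochrome P450 of brassinosteroid synthesis, had 147 and 255 reads, at -0.87 (-1.18 to -0.58). CPD2 (LOC_Os12g04480) had 160 and 267, at -0.82 (-1.11 to -0.53). In both cases the intervals of the copies overlapped.

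The transcription factor NAC10 (LOC_Os11g03300) had 37 against 80 reads, at -1.19 (-1.80 to -0.61). The 51 and 81 reads of ONAC131 (LOC_Os12g03040) gave -0.75 (-1.28 to -0.22), an interval that overlaps that of NAC10. All these copies were higher in B. Of the other copies looked up, the pyruvate kinase locus PK (LOC_Os11g05110) was listed with no entry for its chromosome 12 copy, and neither copy of CIPK15 and CIPK14, CPK25 and CPK26, or PIN1c and PIN1d was listed.

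Loci of the starts were also paired by number and total reads alone, without use of the ratio, and the count depended on the pairing rule. The rule run first took loci whose numbers lay within 500 and whose totals were each other's nearest and within 25%. It gave 21 pairs, 17 with the same direction (15 higher in B, 2 in A) and 12 within 0.1 of each other on the log2 scale. After those pairs and their ratios had been seen, a rule that also keeps the order of loci, with numbers within 300, was put in its place, and it gave 24 pairs, 22 with the same direction (19 in B, 3 in A) and 16 within 0.1. The larger agreement of the second rule is not independent of that choice. No sequence was used, so paired loci need not be copies of each other. The first rule paired LOC_Os12g02340 with LOC_Os11g02610, and the second paired it with LOC_Os11g02400. The median difference between paired ratios was 0.056 under the first rule and 0.054 under the second, with a largest difference of 1.66 under both.

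Under the first rule the 65 other pairs of chromosome starts gave 1 to 20 pairs of loci, 0 to 4 of them within 0.1, and median differences of 0.09 to 2.06. Under the second they gave 1 to 14 pairs, 0 to 3 within 0.1, and median differences of 0.115 to 1.95. The number of pairs within 0.1 was thus higher for chromosomes 11 and 12 than for any other pair of starts under both rules. The share with the same direction, 81.0% under the first rule, was exceeded by 1 other pair of starts, and the 91.7% under the second by none. LOC_Os11g01040 and LOC_Os12g01030 had equal reads, 227 in A and 292 in B each.

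**Figure D4:**
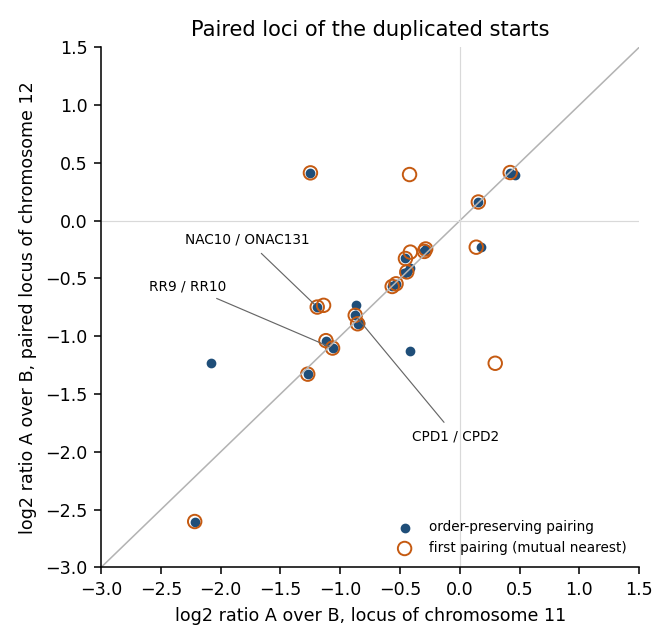
log2 ratio of the chromosome 12 locus (vertical axis) against that of its paired chromosome 11 locus (horizontal axis), for both pairing rules. The diagonal marks equal ratios; 12 of 21 pairs of the first rule (open circles) and 16 of 24 of the order-preserving rule (dots) lie within 0.1 of each other.

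Within the start, a tandem array of nonspecific lipid transfer protein genes, small secreted proteins that carry lipids to the leaf surface, was higher in B on both chromosomes. On chromosome 11, LOC_Os11g02389 had 533 reads in A and 691 in B, LOC_Os11g02400 had 380 and 1524, and LOC_Os11g02424 had 418 and 955. Their log2 ratios were -0.45, -2.08 and -1.27, and LOC_Os11g02350 had 0 and 19 reads. On chromosome 12, LOC_Os12g02320, LOC_Os12g02330 and LOC_Os12g02340 had log2 ratios of -0.65, -2.18 and -1.23, and LOC_Os12g02300 had 3 and 21 reads. All 8 listed loci of the array were higher in B, against 58.6% of the comparison and 30 of 40 and 30 of 42 loci at these starts. The limits of the array were set after the values had been seen, so the count is a description.

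At 22 loci reads were found in 1 library. Of these, 10 had reads in A alone (background 1.37% of loci) and 12 in B alone (1.17%), with medians of 32.0 and 32.5 reads. A count of 0 allows up to 3 reads, or 0.234 RPM in A and 0.247 RPM in B, and folds are given against that floor. LOC_Os11g35710 had 168 reads in A, 13.1 RPM (11.2 to 15.2), at least 45.2-fold higher than in B. LOC_Os11g11950 had 151 reads in A, at least 40.3-fold higher. LOC_Os11g07060 had 64 and LOC_Os11g20310 had 37. Of these, all but LOC_Os11g07060 had a match within 1% at another locus, and none of the B loci named next did. In B alone, 123 reads were counted at LOC_Os11g36200, which is at least 36.0-fold above A. LOC_Os11g09590 had 107 (at least 30.9-fold), LOC_Os11g43760 had 65 and LOC_Os11g38750 had 55. When the other library could hold as many as 3 reads, the counts were 21 for A and 14 for B.

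Some loci with large differences formed 8 blocks, each of at least 3 loci that were neighbours among the listed loci. Members of a block differed the same way by 1 or more on the log2 scale or had 0 reads in the other library. Unlisted loci can lie within a block, as RGA4 (LOC_Os11g11790) does in that from LOC_Os11g11240 to LOC_Os11g11950. Of the blocks, 4 were higher in A and 4 in B, and together they held 28 loci, or 10.7% of the chromosome's loci, against 4.23% over the comparison and 0.62% to 9.20% on the other chromosomes. Chromosome 11 had the highest share under this definition, which was set after the values had been seen. With only loci of at least 20 reads the share was 7.20% and 2 other chromosomes were higher, and without matched loci it was 8.02% and 3 were higher. Most block loci had under 100 reads, where a difference of 1 or more was nearly fixed in advance. Such loci made up 19.2% of chromosome 11 loci and 15.1% of those elsewhere. How far this sets the share in blocks was not tested.

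Blocks of both directions were interspersed along the chromosome. The first, higher in B, ran from LOC_Os11g02400 to LOC_Os11g02440 and took in part of the lipid transfer protein array. The block from LOC_Os11g07060 to LOC_Os11g07225 had 64, 163, 134 and 27 reads in A and 0, 34, 27 and 3 in B. The block from LOC_Os11g08790 to LOC_Os11g08810 had 16, 67 and 22 reads in A and 2, 19 and 6 in B. Farther on, LOC_Os11g11240 to LOC_Os11g11950 had 42, 17, 262 and 151 reads in A against 2, 3, 2 and 0 in B. The opposite pattern held from LOC_Os11g14110 to LOC_Os11g14160, with 2, 176, 0 and 5 reads in A and 20, 344, 48 and 69 in B, and from LOC_Os11g09710 to LOC_Os11g09940, with 0, 0 and 63 in A and 19, 39 and 332 in B.

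Blocks of opposite direction stood nearly side by side at numbers 35710 to 36200. LOC_Os11g35710 to LOC_Os11g36030 had 168, 22, 15 and 26 reads in A and 0, 3, 2 and 5 in B. LOC_Os11g36160 to LOC_Os11g36200 had 0 reads in A at all 3 loci and 16, 26 and 123 in B. Between them, LOC_Os11g36090 had 13 and 115 reads and LOC_Os11g36150 had 97 and 42, and past them LOC_Os11g36310 had 35 and 0. Along these listed loci the direction thus changed from A to B, back to A, to B and again to A.

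**Figure D5:**
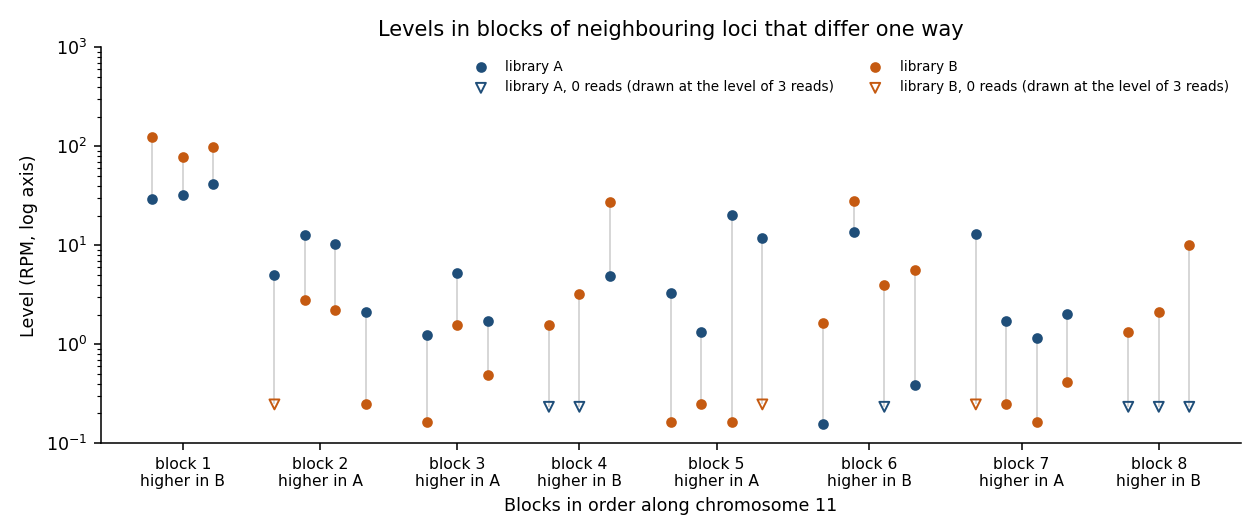
Level (RPM, log axis) in library A and library B of the 28 loci in the 8 blocks, in order along chromosome 11. Loci with 0 reads are drawn as open triangles at the level of 3 reads, and a line joins the values of each locus.

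Among loci read in both libraries with at least 100 reads over both, the largest ratio in A was that of LOC_Os11g11940, 262 reads against 2, a log2 ratio of 6.95 (5.09 to 10.0). LOC_Os11g36960 followed with 385 and 39 reads (3.22), LOC_Os11g17380 with 141 and 16 (3.06) and LOC_Os11g31480 with 134 and 16 (2.99), ahead of LOC_Os11g07200 (2.23) and LOC_Os11g07140 (2.18). In the other direction, LOC_Os11g36090 stood at -3.23, LOC_Os11g16310 with 27 and 165 reads at -2.69, and LOC_Os11g13670 with 21 and 116 at -2.55, followed by LOC_Os11g09940 (-2.48), LOC_Os11g33270 (-2.25) and LOC_Os11g02400 (-2.08). The files give these loci no gene names.

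Genes of known function on chromosome 11 were looked up from 6 lists written from field knowledge. Of 43 genes, 12 were listed and all 12 stood higher in B, against 48.7% of all chromosome 11 loci and 58.6% of the comparison. The 11 read in both libraries had a median log2 ratio of -0.83, and 4 were at -1 or lower. After centring the ratios on the median of the comparison, 10 of the 12 were higher in B, since RCA and ALDP turned. The lists were chosen with earlier results of these data known, so the count is a description.

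Of the photosynthesis and sugar enzymes, 7 of 7 were listed. The share of all chromosome 11 genes that were listed is not known here, so this count and those below have no background. An unlisted gene has no value, which does not show that it was unchanged. LHCB5 (LOC_Os11g13890), an antenna protein of photosystem II, had 12666 against 23050 reads, at -0.94 (-0.98 to -0.91). RCA, at -0.08 (-0.09 to -0.08), and ALDP, at -0.20 (-0.21 to -0.19), differed far less. SPS11 (LOC_Os11g12810), a sucrose phosphate synthase, had 690 and 850 reads (-0.38), and PK had 2147 and 2745 (-0.43). Before centring, the leaf genes were thus higher in B to very unequal degrees. After centring on the median of the comparison, LHCB5 stood at -0.63, PK at -0.12 and SPS11 at -0.07. RCA at 0.23 and ALDP at 0.11 were then higher in A.

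The alcohol dehydrogenases, which regenerate NAD+ in fermentation, showed larger differences. ADH1 (LOC_Os11g10480) had 110 against 339 reads, or 8.56 against 27.9 RPM, at -1.70 (-2.03 to -1.39). ADH2 (LOC_Os11g10510) had 0 and 24 reads. Of the listed loci around them, LOC_Os11g10470 had 313 and 518 reads (-0.81), while LOC_Os11g10420 with 366 and 261 and LOC_Os11g10640 with 18 and 0 were higher in A.

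CHS1 (LOC_Os11g32650), chalcone synthase, which makes the first flavonoid precursor, had 2296 against 5681 reads, or 179 against 467 RPM, at -1.39 (-1.46 to -1.32). ASR5 (LOC_Os11g06720), a small protein induced by abscisic acid, stress and ripening, had 821 and 1083 reads (-0.48). It was the only listed gene of 9 for dehydration and heat proteins, and the dehydrins RAB16A to RAB16D were not listed. TUBA (LOC_Os11g14220), an alpha-tubulin, had 945 and 1593 reads (-0.83). None of 8 disease resistance genes was listed, the Pik-1 and Pik-2 pair against rice blast among them, and 1 of 8 transcription factors was (NAC10, described above).

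PDIL1-1 (LOC_Os11g09280), a protein disulphide isomerase that folds secreted proteins, went the other way, with 848 against 546 reads, at 0.55 (0.40 to 0.71). Its reads lay in the box of 700 to 900 by 500 to 650 reads described above, where its ratio was the largest. No other locus matched them within 1%. It was named after its value had been seen, as were OSK1 (LOC_Os11g26910) at -0.37 and 6PGDH2 (LOC_Os11g29400), of the pentose phosphate pathway, at -0.39. The symbol OSK1 had 2 matches in RefSeq, 1 of them on chromosome 11, so no function is given for it here. GME-2 (LOC_Os11g37890), of ascorbate synthesis, was at -0.35, and VATP-P1 (LOC_Os11g06890), a subunit of the vacuolar proton pump, at -0.49. With CPD1, 6 genes were named in this way, and PDIL1-1 was the 1 higher in A. After centring, OSK1 stood at -0.06, 6PGDH2 at -0.08, GME-2 at -0.04 and VATP-P1 at -0.18. CPD1 was then at -0.56 and PDIL1-1 at 0.87.

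The leaf markers RCA and LHCB5 on chromosome 11, and RBCS and CAB2R elsewhere, had reads in both libraries. The root marker RCc3 was not listed and so has no value, which leaves the absence of root RNA unchecked. LOC_Os11g39020 (12165 and 9407 reads, log2 ratio 0.29) and LOC_Os11g01439 (4682 and 3914 reads, 0.18) completed the 5 chromosome 11 loci with most reads, and both were higher in A.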

How the data were processed

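Poly-A RNA was converted with poly-T primers, with inserts of about 500 bp, and read from 1 end for 100 bp, per the labels' protocols. Reads were aligned with Bowtie 0.12.7 and compared with edgeR, per the submitters' processing notes. Not given in the sources used here are the genome build, the annotation, the strand setting, the dispersion and the treatment of multiply matching reads. The authors deposited 1 comparison with a mean level and a fold change, both as log2 values, and p-values, holding only models with an adjusted p-value under 0.05; in the authors' deposited table the largest on chromosome 11 was 0.0493. From the log2 values, reads were recovered as whole numbers within 1e-06, a step tested on simulated data. Exact Clopper-Pearson and Poisson intervals cover counting error only, and reads without molecular identifiers are not independent molecules.

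The members and lists were chosen with earlier results of these data known. Genes named were the list members, the 5 loci with most reads, the 6 largest and 6 smallest ratios among loci read in both libraries with at least 100 reads, and the 4 with most reads among loci read in each library alone. Names come from field knowledge; 29 of 54 were found by symbol in RefSeq (ASM3414082v1), all on the same chromosome. Blocks, the read box, the lipid transfer protein array, the added names and the pairing rules were set after values had been seen. The second pairing rule was chosen after the first had been run and its pairs judged, in part by their ratios; both are reported. Sequences of these loci were not used here.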

Additional observations from a re-analysis of the deposited data

How the results depend on the processing

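No paired analysis was possible because there was 1 library of each genotype, and for that reason no replicate could be left out. The share of chromosome 11 loci higher in A moved from 51.3% to 42.6% without matched loci. The median log2 ratio of 0.24 became 0.55 after centring on the comparison's median (a shift of 0.31) and 0.44 with table totals. It reversed to -0.17 among loci with at least 100 reads, to -0.35 without matched loci and to -0.22 without matched loci and the start. In the same order, the share higher in A was 49.3%, 42.6% and 46.0%. No locus of the chromosome had an absolute log2 ratio under 0.085. The cause of the reversal was not tested. Centring moved the median of the start from -0.57 to -0.25, and table totals moved it to -0.36, with the direction kept. Start loci matched on chromosome 12 rose from 1 to 7 when the limit went from 1% to 5%. When the other library could hold as many as 3 reads, loci read in A alone rose from 10 to 21 and those in B alone from 12 to 14. Paired start loci with the same direction were 17 of 21 under the first rule. They were 22 of 24, 18 of 20 and 23 of 25 under the order-preserving rule with totals within 25%, 10% and 50%. Loci in blocks numbered 28, and 56 with blocks of 2 or more loci, 16 with 4 or more and 18 with only loci of at least 20 reads. RCA reversed to 0.23 after centring and 0.12 with table totals, and ALDP to 0.11 and 0.0014. With 1 library per genotype, the spread between plants is unknown.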

Other observations

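Models of 1 locus gave like values. Of the 60 chromosome 11 loci with several listed models, 14 had models with identical reads and 0 had models of differing direction. The spread of log2 ratios between models of a locus had a median of 0.031 and was largest at LOC_Os11g44810, at 0.52. In the authors' deposited table, 41 of the 261 loci had an adjusted p over 0.01.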
